A study of Homo sapiens with 6 samples.

Results

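The genes described here are the 20 cytosolic aminoacyl-tRNA synthetases and 15 genes of the amino-acid stress response, 35 of the 25370 rows of the raw count table, chosen by their symbols and read in all 6 libraries. They fall by role into 20 synthetases, 5 enzymes of amino-acid synthesis (ASNS, PHGDH, PSAT1, PSPH and SHMT2), 4 transcription factors (ATF4, ATF5, DDIT3 and CEBPB), 3 stress effectors (TRIB3, CHAC1 and SESN2) and 3 amino-acid transporter genes (SLC7A11, SLC7A5 and SLC3A2). The series measured total RNA by stranded paired-end sequencing in human neuroblastoma cell lines, and its title concerns how LMO1 acts with MYCN in this tumour. Neuroblastoma is a childhood cancer of the sympathetic nervous system. BE2C and Kelly are established lines of it, and both are known as MYCN-amplified. The groups were 2 libraries of BE2C cells with forced overexpression of LMO1 (a LIM-domain transcriptional cofactor), 2 of BE2C cells carrying the vector control, 1 of parental BE2C cells and 1 of Kelly cells. All 5 BE2C libraries share the line and its own genome, and no library had an amino-acid or drug treatment in its labels. The promoter that drives the LMO1 construct, and whether the modified cells are 1 clone or a pool, is not given in the sources used here.

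A synthetase joins 1 amino acid to its tRNA, and the cytosolic set supplies the charged tRNAs that ribosomes use. Uncharged tRNA activates the kinase GCN2, which phosphorylates the initiation factor eIF2, lowers general translation and at the same time raises translation of the ATF4 message. ATF4 protein then acts on genes of amino-acid synthesis and uptake, on many synthetases, and on the stress factors DDIT3 (CHOP), TRIB3 and CHAC1. Since ATF4 is set largely at translation, its own RNA level is not its activity.

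Against vector, forced LMO1 went with slightly lower levels of most synthetase RNAs and with higher levels of WARS and of a few stress genes. By edgeR's quasi-likelihood test, called at an adjusted p below 0.05 over all genes tested, 11 of 20 synthetases fell, by 5.7 to 15.9%, and 1 synthetase, WARS, rose. Of all genes tested 15.1% were called lower and 15.9% higher. For genes at or above the mean level of the lowest gene of the set these shares were 28.5% and 16.1%. That limit is a floor and not a match in level. Without vector replicate 1, 7 of the 20 synthetases were called lower. The ATF4-linked factor ATF5 rose 2.10-fold and TRIB3 1.33-fold, while ATF4 itself fell by 6.17% and ASNS by 5.0%. Between lines, Kelly had 4.57-fold less WARS and 2.04-fold less IARS than parental BE2C, and 2.64-fold more QARS and 2.12-fold more SLC7A11, from 1 library each.

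Total gene counts ran from 18737591 to 25070942 in the 4 LMO1 and vector libraries and were 48663459 in parental BE2C and 59512958 in Kelly, so the last 2 were deeper. Levels are given in CPM (counts of a gene relative to the library total, scaled by TMM over all 6 libraries). LMO1 itself stood at 6.59 and 5.89 CPM with forced LMO1 and at 1.06 and 0.928 CPM with vector (log2 fold change 2.65, SE 0.271, adjusted p = 3.46e-11, edgeR). In parental BE2C LMO1 stood at 1.91 CPM and in Kelly at 92.7 CPM. MYCN, the amplified oncogene of both lines, stood at 1568 to 2034 CPM in the 6 libraries. Summed fibroblast markers (6 genes) were 101.0 to 188.6 CPM, and single ones moved apart: of the 5 tested with LMO1, DCN and LUM rose (log2 fold changes 0.84 and 1.06) and COL3A1 fell (-1.80), while Kelly had 0.198 CPM of DCN and 57.0 CPM of COL1A1 against 101.3 and 7.54 CPM in parental BE2C. Their part in the results below was not tested. Summed Schwann, endothelial, haematopoietic and epithelial markers were at most 8.40 CPM in any library, and CD3E was at 0 in all 6. The labels do not say that the replicate libraries came from separate cultures, so a p-value here speaks to the variation among the deposited libraries alone, part or all of which may be technical. In bulk RNA, fewer cells with a transcript and less of it per cell cannot be told apart.

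All 35 genes passed the low-count filter and were well covered: the lowest count of any of them in any library was 533. The coefficient of variation between replicate libraries had a median of 1.98% and reached 13.7%, and the SE of the log2 fold changes ran from 0.0229 to 0.0787. Differences of 5 to 10% could therefore be called, and many of those below are that small.

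Per kilobase of annotated exon, the synthetases spanned a wide range of levels in vector cells. SARS, the seryl-tRNA synthetase, was first at 419.9 CPM per kilobase, followed by IARS (isoleucine) at 296.3, GARS (glycine) at 275.1, MARS (methionine) at 211.6 and AARS (alanine) at 184.0. QARS (glutamine) at 46.4, FARSB (the beta subunit of the phenylalanine enzyme) at 39.8, DARS (aspartate) at 26.9 and HARS (histidine) at 20.7 CPM per kilobase closed the order. In the middle, KARS and WARS overlapped in level between the 2 vector libraries, as did YARS and RARS, so their order is not resolved. The order of places 10 to 14 also changed when the longest transcript in place of all exon bases gave the length. The plot of synthetase levels per kilobase shows this order, in which the Kelly value of WARS lies far below its neighbours.

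**Figure D1:**
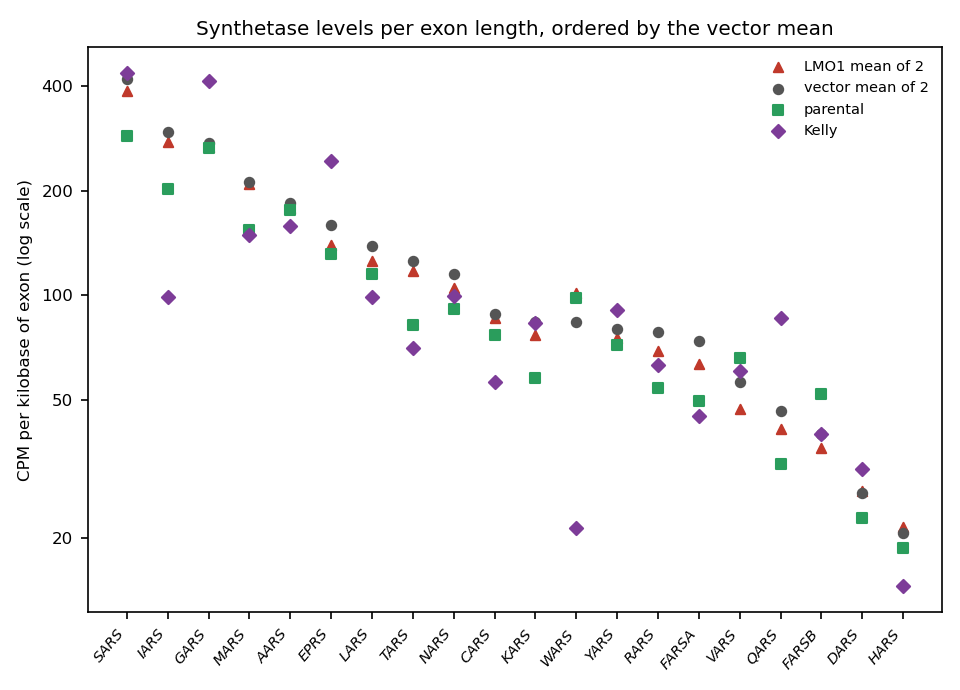
Level of the 20 synthetases in CPM per kilobase of exon (log axis), ordered by the mean of 2 vector libraries, with the LMO1 mean of 2 libraries and the single parental and Kelly libraries. SARS stood highest at 419.9 and HARS lowest at 20.7 in vector cells, and in Kelly WARS and IARS lay well below the BE2C points while QARS, EPRS and GARS lay above them.

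ATF4 binds DNA with a C/EBP partner at composite elements, known as amino acid response or C/EBP-ATF elements. The letters TGATGNAA, searched on both strands, were found in the promoter windows of 10 of the 28 genes that had a window (35.7%), in 7 of 16 synthetases (43.8%) and in 3 of 12 other genes of the set (25.0%), against 1217 of 27305 genes in the whole table (4.46%). Each window holds 250 bases before and 50 bases after an annotated start, from RefSeq (GRCh38.p14), and genes with several starts were searched in each of them. DARS, LARS, VARS, YARS, PSPH, SHMT2 and SLC7A11 had no window in that table. A match describes these letters and does not show that a factor binds there. The runs below are shown because these synthetases carry the same letters as known ATF4 targets. Each is printed 5′ to 3′ along the gene's strand with the matched letters in capitals, where TTGCATCA is the reverse complement of TGATGCAA.
AARS, chr16:70289675-70289704, minus strand: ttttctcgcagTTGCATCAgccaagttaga
CARS, chr11:3057407-3057436, minus strand: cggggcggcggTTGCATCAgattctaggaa
GARS, chr7:30594834-30594863, plus strand: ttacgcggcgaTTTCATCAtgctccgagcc
IARS, chr9:92293692-92293721, minus strand: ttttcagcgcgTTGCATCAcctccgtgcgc
MARS, chr12:57488053-57488082, plus strand: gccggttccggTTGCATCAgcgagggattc
NARS, chr18:57621804-57621833, minus strand: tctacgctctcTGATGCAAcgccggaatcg
TARS, chr5:33440956-33440985, plus strand: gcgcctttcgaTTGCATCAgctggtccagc
CHAC1, chr15:40953251-40953280, plus strand: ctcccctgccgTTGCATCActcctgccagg
SLC3A2, chr11:62881725-62881748, plus strand: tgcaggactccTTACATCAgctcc
Of the 9 genes, AARS, CARS, IARS, MARS, TARS and CHAC1 shared the identical 8 letters, and NARS had them on the other strand. The match lay before the start in IARS (-13 to -6), GARS (-33 to -26), AARS (-187 to -180) and CHAC1 (-209 to -202). It spanned the start in CARS (-2 to 6) and MARS (-4 to 4). In TARS (3 to 10), NARS (15 to 22) and SLC3A2 (38 to 45) it lay after the start. Synthetases that fell with LMO1 were found both with and without the letters. Of the 7 with them 0 rose and 3 fell (median log2 fold change -0.039). Of the 9 with a window and without them 1 rose and 6 fell (median -0.12), a difference that was not tested. Among all genes tested, 15.1% were called lower and 15.9% higher. For genes at or above the mean level of the lowest gene of the set these shares were 28.5% and 16.1%. Neither group of synthetases was tested against these shares.

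ASNS, asparagine synthetase, is the standard example of a gene read out through such an element. Its 100 bases before the start are printed because ASNS is the reference point for the values below, again with the matched letters, at -68 to -61, in capitals.
ASNS, chr7:97872409-97872508, minus strand: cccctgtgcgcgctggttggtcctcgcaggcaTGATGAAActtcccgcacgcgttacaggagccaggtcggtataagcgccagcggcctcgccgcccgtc

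WARS, the only synthetase that rose with LMO1 and the one furthest apart between the lines, had no match to TGATGNAA in its windows. WARS is also known as an interferon-inducible gene. The letters of an interferon response element (GAAA, any 2 bases, then GAAA), searched on both strands, were found in WARS at -55 to -46 and in 2 of 28 genes of the set (7.14%, WARS and ATF5), against 4.38% of all genes with a window. ATF5 held 3 matches, and lacking TGATGNAA was shared by 9 of the 16 synthetases with a window, so neither trait is particular to WARS. The run around the match is shown because WARS has the largest difference between the lines.
WARS, chr14:100375382-100375413, minus strand: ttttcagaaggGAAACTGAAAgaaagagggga
The E-box letters CACGTG, at which MYC proteins bind, were found in 3 of 28 genes (10.7%, IARS, ATF4 and SLC7A5) against 8.77% of all genes. No match to 1 of the 3 motifs shared a base with a match to another in these genes.

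In the comparison of forced LMO1 with vector, edgeR called 31.0% of 15480 genes, 15.9% as higher and 15.1% as lower. Of the 35 genes, 4 rose (11.4%) and 15 fell (42.9%), while 16 were not called. Highly expressed genes were called lower more often in this comparison: among the 5249 genes at or above the mean level of the lowest of the 35 (42.2 CPM), 16.1% were called higher and 28.5% lower. The share of the 35 called lower stood above both values, and the share of the synthetases, 11 of 20 (55.0%), stood further above them, with no test of that excess. That level limit was set after the values were seen. These counts moved when 1 library was left out, and were lowest without vector replicate 1. Such a fit has 1 library in a group, so the loss of calls cannot be assigned to that library.

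Among the synthetases, 17 of 20 log2 fold changes were below 0, with a median of -0.10 against 0.000832 for all genes tested. The summed level of the 20 was 8151 and 8243 CPM with LMO1 against 8697 and 8690 CPM with vector. It was 5.72% lower, and the groups did not overlap. The summed level of all genes tested was itself 2.2% lower with LMO1 under this scaling. Libraries did not overlap for 15 synthetases that were lower with LMO1 and for 1 that was higher. Over all 35 genes the groups did not overlap for 22 that were lower and 5 that were higher, against 32.1% and 31.5% of all genes tested.

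The synthetase with the largest fall was VARS, the valine enzyme, at 202 and 204 CPM with LMO1 and 238 and 246 CPM with vector (log2 fold change -0.25, SE 0.0356, adjusted p = 1.83e-07, edgeR). FARSA, the alpha subunit of the phenylalanine enzyme, stood at 136 and 129 CPM against 159 and 150 CPM (log2 fold change -0.22, SE 0.0426, adjusted p = 6.86e-05). EPRS, a fused enzyme for glutamate and proline, stood at 701 and 697 CPM against 799 and 796 CPM (log2 fold change -0.18, SE 0.0258, adjusted p = 1.14e-07). In all 3 genes both LMO1 libraries lay below both vector libraries, and the replicates differed by less than the groups. FARSB, the partner subunit of FARSA, was not called, at 112.5 and 132.7 CPM against 134.5 and 133.6 CPM (95% interval of the log2 fold change -0.22 to -0.0199), with the 2 LMO1 libraries apart from each other. The other falls were in RARS (arginine, log2 fold change -0.18), QARS (glutamine, -0.17), LARS (leucine, -0.14), NARS (asparagine, -0.12), KARS (lysine, -0.12), SARS (serine, -0.11), IARS (isoleucine, -0.09) and TARS (threonine, -0.08). These 8 changes are each under 12%. The calls of KARS, TARS, IARS and NARS were lost without vector replicate 1, those of KARS and TARS also without vector replicate 2, that of KARS without LMO1 replicate 1 and that of QARS without LMO1 replicate 2.

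WARS, the tryptophan enzyme, moved the other way. It stood at 425 and 440 CPM with LMO1, at 359 and 351 CPM with vector, at 416 CPM in parental BE2C and at 91.0 CPM in Kelly. Both LMO1 libraries lay above both vector libraries (log2 fold change 0.29, SE 0.0303, adjusted p = 6.75e-11, edgeR), a rise of 22.3%, and the parental library lay near the LMO1 libraries. WARS shares 287 exon bases with WDR25 on the opposite strand, and WDR25 stood at 5.02 to 21.2 CPM in the 6 libraries. The strand setting of the counting is not given in the sources used here, so reads in shared bases cannot be assigned.

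Of the 8 synthetases that were not called, FARSB had an estimate as large as some of the called falls (log2 fold change -0.12). That estimate depended on the LMO1 library kept. It was -0.25 without LMO1 replicate 2, where FARSB was called lower, and -0.0107 without LMO1 replicate 1. AARS, CARS, GARS and MARS had log2 fold changes of -0.04 to -0.00997, and the widest of their 95% intervals ran from -0.10 to 0.03 (CARS). HARS (log2 fold change 0.07, interval -0.04 to 0.18) and DARS (0.03, -0.0956 to 0.15) were the 2 uncalled synthetases above 0, and their libraries overlapped between the groups. YARS had an interval that stayed below 0 (-0.15 to -0.00944) without passing the test over all genes (adjusted p = 0.0776, edgeR). Without LMO1 replicate 2, YARS and GARS were called lower as well. Without LMO1 replicate 1 the log2 fold change of GARS was -0.0119.

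By structural class, with the fused enzyme EPRS counted in class I alone, 1 of 10 class I synthetases rose and 6 fell. Of the 10 class II synthetases 0 rose and 5 fell. Among all genes at or above 42.2 CPM, 28.5% were called lower and 16.1% higher. Of the 8 enzymes of the multi-synthetase complex, a cytosolic assembly held together by scaffold proteins, 0 rose and 6 fell (median log2 fold change -0.13), and of the 12 others 1 rose and 5 fell (median -0.0822). Differences between these groups of enzymes were not tested. The 3 scaffold genes AIMP1, AIMP2 and EEF1E1 had 0 calls in either direction, with log2 fold changes of -0.03, -0.03 and 0.24. The plot of fold changes by role shows 17 of the 20 synthetases below 0. DARS, HARS and WARS lie above it, with WARS furthest to the right.

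**Figure D2:**
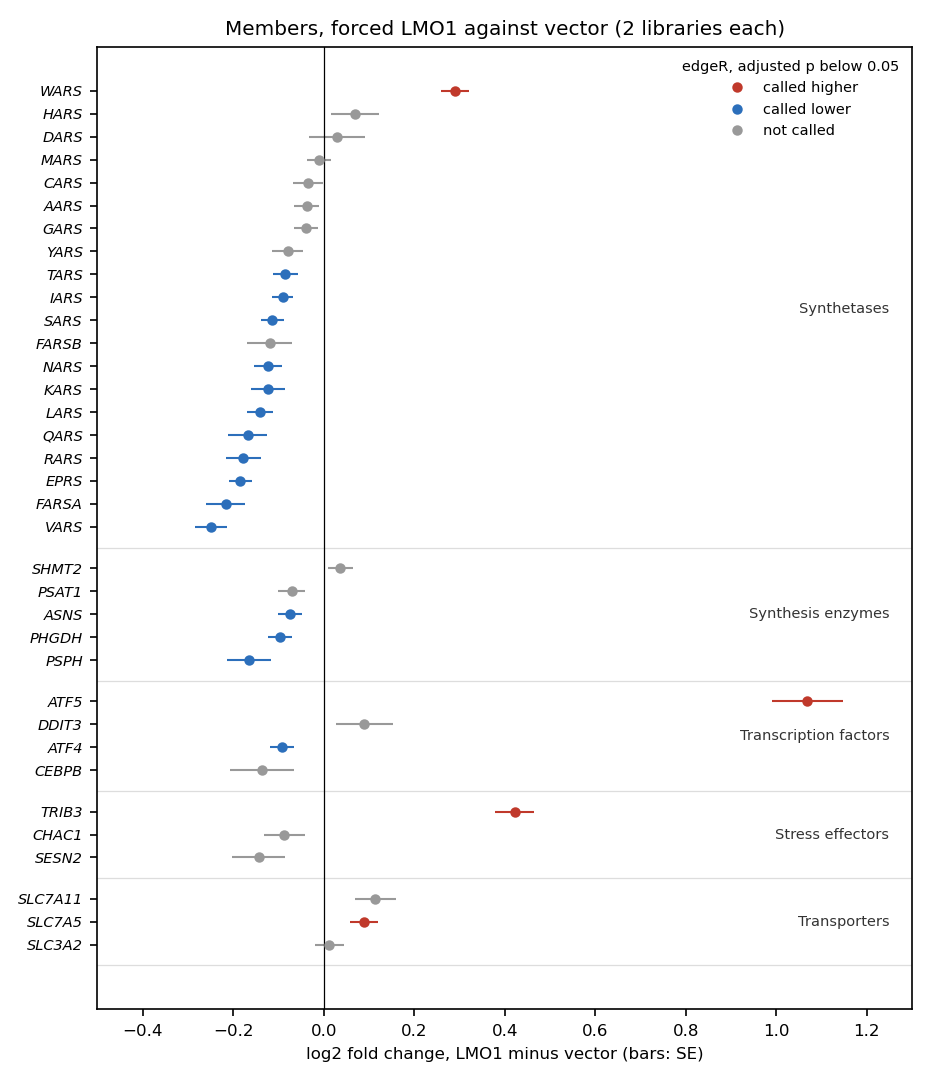
Log2 fold change of each of the 35 genes, LMO1 minus vector (x axis, 2 libraries each), grouped by role, with bars of 1 SE and colour for the edgeR call at an adjusted p below 0.05. Of the synthetases 11 are called lower and 1 (WARS) higher, and ATF5 (1.07) and TRIB3 (0.42) lie furthest to the right.

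Among the enzymes of amino-acid synthesis, 3 of 5 fell and 0 rose. Of all genes at or above 42.2 CPM, 28.5% were called lower and 16.1% higher. ASNS, which makes asparagine, stood at 789 and 824 CPM with LMO1, 853 and 851 CPM with vector, 759 CPM in parental BE2C and 1346 CPM in Kelly (log2 fold change with LMO1 -0.07, SE 0.026, adjusted p = 0.0254, edgeR). The LMO1 libraries lay below the vector libraries and Kelly lay above all BE2C libraries. The ASNS call was lost in 6 of the 12 alternative analyses, among them those without LMO1 replicate 1 and without either vector library. PHGDH and PSPH, the first and last steps of serine synthesis, fell (log2 fold changes -0.10 and -0.16, adjusted p = 0.00396 and 0.00709), and these calls were lost without vector replicate 2 (PHGDH) and without LMO1 replicate 1 (PSPH). PSAT1, the step between them, was not called (-0.07, adjusted p = 0.0634). SHMT2, the mitochondrial enzyme that turns serine into glycine, had a log2 fold change of 0.04 with an interval of -0.0196 to 0.09. Without LMO1 replicate 1, PSAT1 was called lower (adjusted p = 0.00646) and SHMT2 higher (adjusted p = 0.0337).

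Among the transcription factors, 1 rose and 1 fell. ATF4 stood at 722 and 736 CPM with LMO1, 799 and 761 CPM with vector, 500 CPM in parental BE2C and 969 CPM in Kelly. It was lower with LMO1 by a log2 fold change of -0.09 (SE 0.0267, adjusted p = 0.00648, edgeR), and lay lower still in the parental library, which no test compares. The ATF4 call was lost without vector replicate 1 and with total-count scaling. DDIT3, which encodes the stress factor CHOP, stood at 62.7 and 61.2 CPM against 55.1 and 61.6 CPM, with 41.2 CPM in parental BE2C and 31.1 CPM in Kelly. DDIT3 overlapped between LMO1 and vector (log2 fold change 0.09, interval -0.04 to 0.22), and it shares 355 exon bases with MARS on the opposite strand, which stood at 434 to 617 CPM. CEBPB, a dimer partner of ATF4, was not called (log2 fold change -0.14, interval -0.28 to 0.00519).

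ATF5, a close relative of ATF4, showed the largest change of the 35 genes. It stood at 58.0 and 56.3 CPM with LMO1, 24.6 and 29.9 CPM with vector, 163 CPM in parental BE2C and 211 CPM in Kelly. The groups lay well apart (log2 fold change 1.07, SE 0.0787, adjusted p = 1.34e-15, edgeR), yet the LMO1 libraries stayed far below the parental line from which they derive, which had 5.99 times the vector mean. ATF5 shares 626 exon bases with NUP62 on the opposite strand. NUP62 stood at 132 and 137 CPM with LMO1, 144 and 140 CPM with vector, 162 CPM in parental BE2C and 80.0 CPM in Kelly. It was thus highest in parental BE2C and lowest in Kelly, and the part of shared reads in the ATF5 values was not tested. The GC content of the ATF5 transcript was 59.98%, and the genes of its GC range (58.5 to 62.0%) had a median log2 difference of -0.00968 between LMO1 and vector and of 0.0402 between parental and vector.

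Among the stress effectors, TRIB3, a pseudokinase that feeds back on ATF4 signalling, stood at 144 and 146 CPM with LMO1, 106 and 111 CPM with vector, 86.0 CPM in parental BE2C and 163 CPM in Kelly. It rose with LMO1 without overlap (log2 fold change 0.42, SE 0.044, adjusted p = 6.78e-11, edgeR). CHAC1, which degrades glutathione and is among the most specific ATF4 targets, stood at 112 and 120 CPM against 125 and 123 CPM, with 96.5 CPM in parental BE2C and 89.0 CPM in Kelly. Its LMO1 libraries were both lower, but it was not called (log2 fold change -0.09, interval -0.18 to 0.00467). SESN2, a leucine sensor that restrains mTORC1, was not called either (log2 fold change -0.14, adjusted p = 0.0554), but was called lower without LMO1 replicate 2 (adjusted p = 0.0385). Of the 3 effectors TRIB3 alone was called, and the estimates of the other two lay below 0.

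Of the 3 transporter genes 1 rose and 0 fell, beside 15.9% and 15.1% of all genes tested. SLC7A5, the light chain of the large neutral amino-acid exchanger LAT1, stood at 455 and 479 CPM with LMO1 and 451 and 431 CPM with vector, with 845 CPM in parental BE2C and 836 CPM in Kelly. It rose by a log2 fold change of 0.09 (SE 0.0304, adjusted p = 0.0214, edgeR), a call that was lost without LMO1 replicate 2 and without vector replicate 2. SLC7A11, the cystine-glutamate exchanger xCT, stood at 122 and 131 CPM against 117 and 118 CPM, with 151 CPM in parental BE2C and 319 CPM in Kelly. Its LMO1 libraries were above its vector libraries, and its adjusted p of 0.0501 lay just above the threshold (log2 fold change 0.11, SE 0.0454, edgeR). It was called higher without LMO1 replicate 1 (adjusted p = 0.0449). SLC3A2, the heavy chain that both light chains pair with, had a log2 fold change of 0.01 with an interval of -0.05 to 0.08.

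**Figure D3:**
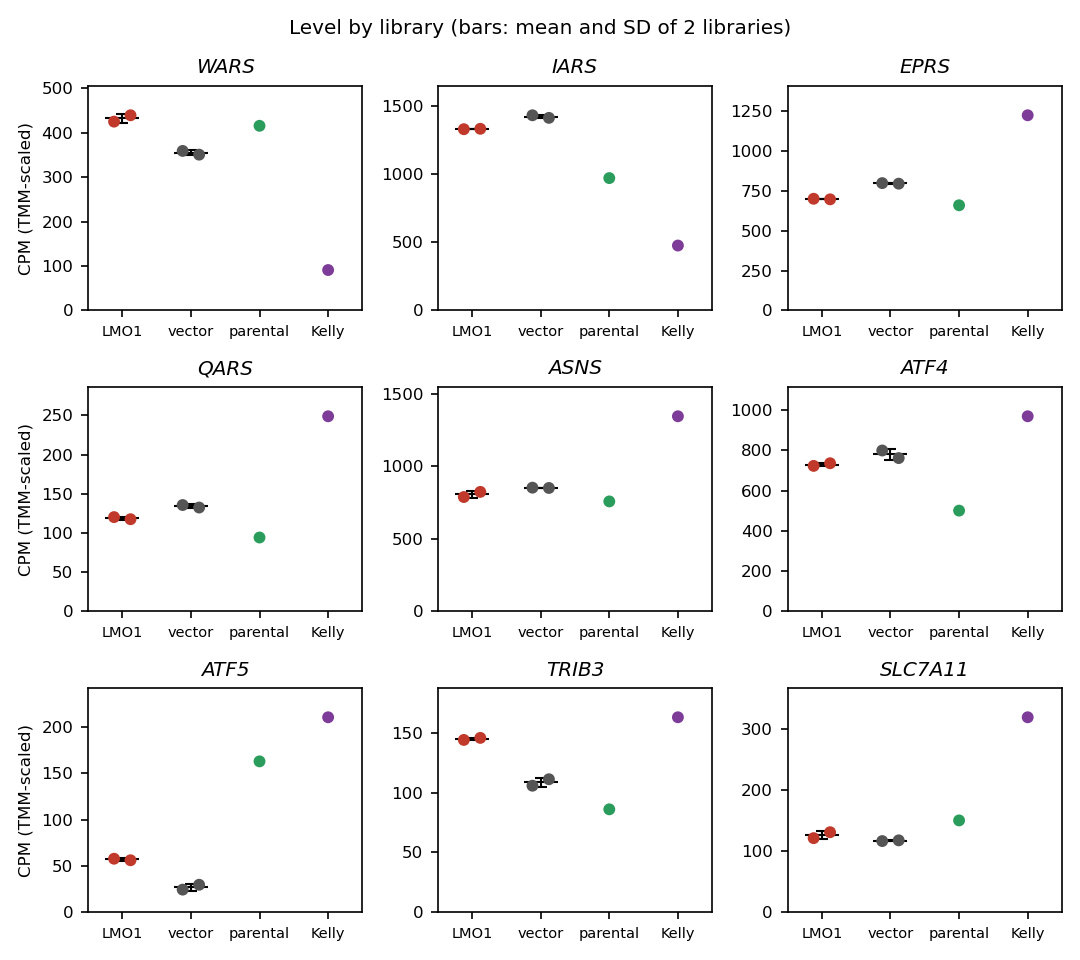
Levels in CPM (y axis, from 0) of 9 genes in each of the 6 libraries, with bars for the mean and SD of the 2 LMO1 and 2 vector libraries. WARS, ATF5 and TRIB3 are higher with LMO1 than with vector, and Kelly is lowest for WARS (91.0) and IARS and highest for the other 7 genes.

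Kelly was compared with parental BE2C by size, since 1 library on each side allows no test, and the intervals given cover counting error only. At 1.5-fold or more, 9 of the 35 genes were higher in Kelly, against a background of 25.1% of the 12361 genes that reached 5 CPM in Kelly or parental BE2C, and 3 were lower, against 24.9%. At 2-fold or more, 2 were higher (background 15.1%) and 2 lower (background 13.7%). These counts were near the background or below it.

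The 9 higher genes span all 5 roles. The level of QARS was 248.9 CPM in Kelly against 94.3 CPM in the parental cells (2.64-fold, interval 2.55 to 2.73), and its other levels were 120 and 118 CPM with LMO1 and 136 and 132 CPM with vector. Kelly thus lay above every BE2C library for this enzyme. SLC7A11 was 2.12-fold higher (interval 2.06 to 2.18), ATF4 1.94-fold, TRIB3 1.89-fold, EPRS 1.86-fold, SESN2 1.85-fold, ASNS 1.77-fold, GARS 1.56-fold and SARS 1.53-fold. Genes known as ATF4 targets lay on both sides. ATF4 itself, ASNS and TRIB3 were higher in Kelly, while CHAC1, DDIT3, PSAT1 and SHMT2 were below all BE2C libraries. The count of 9 is near the background of 25.1%, so no pattern of ATF4 targets is read from it.

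WARS was 4.57-fold lower in Kelly than in parental BE2C (interval 4.44 to 4.71), and lay below all 5 BE2C libraries. IARS stood at 475 CPM in Kelly, 969 CPM in parental BE2C, 1327 and 1330 CPM with LMO1 and 1429 and 1410 CPM with vector. It was 2.04-fold lower in Kelly than in parental BE2C (interval 2.01 to 2.07), and also lower in the parental than in every modified library. PSAT1 was 1.79-fold lower. Read against all 5 BE2C libraries, Kelly was above all of them for 15 of the 35 genes and below all of them for 13, with a background of 38.9% in each direction over 12804 genes. For the synthetases alone these counts were 6 and 9. Their summed level in Kelly, 7514 CPM, was 5.75% above that of parental BE2C, so single enzymes differed far more between the lines than the sum did.

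**Figure D4:**
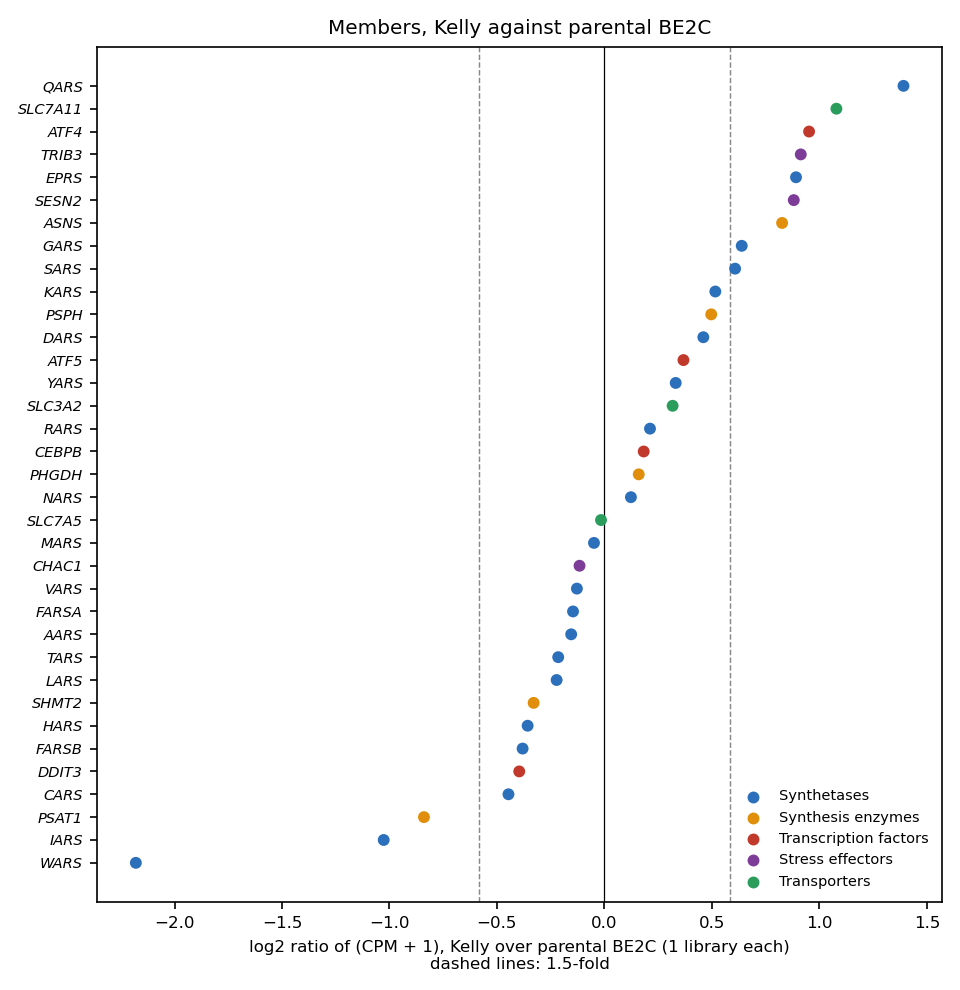
Log2 ratio of CPM plus 1, Kelly over parental BE2C (x axis, 1 library each), for the 35 genes in order, coloured by role, with dashed lines at 1.5-fold. QARS (2.64-fold) and SLC7A11 (2.12-fold) lie furthest right, and WARS (4.57-fold lower), IARS and PSAT1 lie left of the lower line.

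Parental BE2C and the vector cells are the same line without forced LMO1, and the size of their difference for these genes is given here. The comparison has 1 parental library and no test, and the construct, the depth and any separate handling of the libraries cannot be told apart in it. At 1.5-fold or more, 2 of the 35 genes were higher in parental BE2C (ATF5, 5.99-fold, and SLC7A5, 1.92-fold), against 18.3% of 11720 genes, and 3 were lower, against 8.57%. Those 3 were CEBPB, ATF4 and TARS, at 0.547, 0.641 and 0.656 times the vector mean. At 2-fold or more, 1 was higher (ATF5, background 8.55%) and 0 were lower (background 2.67%). The synthetase sum in parental BE2C was 7106 CPM, 18.3% below the vector mean, and 17 of 20 synthetases were below it. The exceptions were FARSB, VARS and WARS, at 1.31, 1.17 and 1.17 times the vector mean. Of the 11719 tested genes that reached 5 CPM on either side, 5500 were below the vector mean. The sum over all genes tested was 0.173% lower in parental BE2C.

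The median absolute log2 difference over the 35 genes was 0.0963 between LMO1 and vector, 0.33 between parental and vector and 0.38 between Kelly and parental, against 0.17, 0.33 and 0.53 over all genes tested. The LMO1 difference of the set was therefore smaller than that between the parental and the vector libraries, a difference whose sources cannot be told apart here. These comparisons share the vector or the parental libraries, so their values stand side by side and are not independent of each other. The map of the 35 genes over the 6 libraries shows the narrow LMO1 columns beside the wider parental and Kelly columns.

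**Figure D5:**
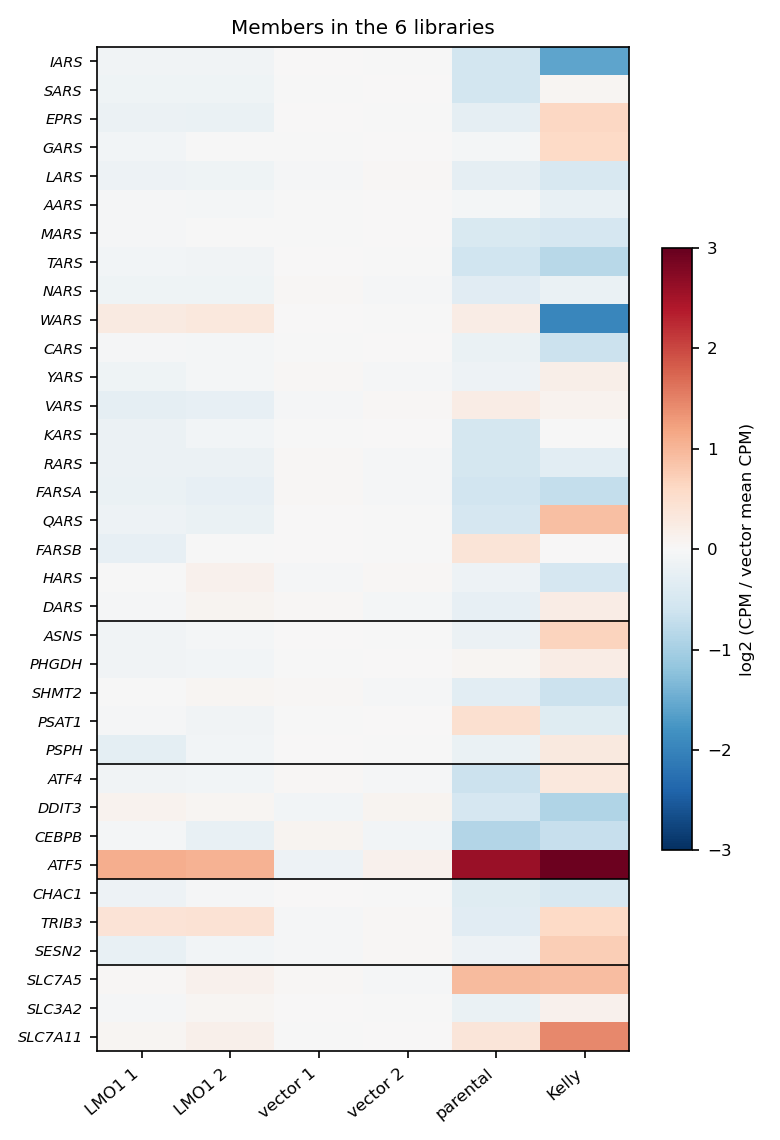
Log2 of CPM over the mean of the 2 vector libraries (colour, blue lower and red higher) for the 35 genes (rows, by role) in the 6 libraries (columns). The LMO1 columns are pale except for ATF5, which is dark red in parental BE2C (5.99-fold) and Kelly, and WARS is blue in Kelly only.

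Genes around the set give the setting of the LMO1 comparison, each by the same edgeR test, and each count stands beside 15.9% called higher and 15.1% lower among all genes tested. Of 13 further targets of the integrated stress response, 8 rose and 3 fell (median log2 fold change 0.28). VEGFA (0.52) and DDIT4 (0.47), which also respond to low oxygen, had the smallest adjusted p (2.37e-18 and 1.07e-17), followed by STC2 (0.28) and CEBPG (0.19), the latter an ATF4 partner. Those that fell were JDP2 (-0.27), SQSTM1 (-0.14) and EIF4EBP1 (-0.09). Of 18 further metabolic genes linked to ATF4, 3 rose and 3 fell (median -0.0219), with ALDH1L2 (0.42) and GPT2 (0.23) up and MTHFD1L (-0.19) and SLC38A2 (-0.13) down. The balance of calls thus differed between the lists: 61.5% of the further targets were called higher and 23.1% lower, 16.7% of the metabolic genes in each direction, and 11.4% and 42.9% of the 35 genes.

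The shares for all genes apply here too. Upstream, 1 of 15 eIF2 kinases and eIF2 machinery genes rose and 5 fell (median log2 fold change -0.12). GCN1L1, the GCN2 coactivator, fell (-0.21), as did the eIF2B subunit gene EIF2B5 (-0.31), the eIF2 gamma subunit gene EIF2S3 (-0.14) and EIF2AK3, which encodes the kinase PERK (-0.33, adjusted p = 0.00762). Of 17 unfolded protein response genes 5 rose and 5 fell (median -0.0825), with EDEM1 (0.57), SEL1L (0.33) and HERPUD1 (0.23), all of endoplasmic reticulum degradation, up and the chaperone gene CALR (-0.19) down. Of 17 mitochondrial synthetases 0 rose and 3 fell (median -0.03), namely AARS2 (-0.32), YARS2 (-0.23) and MARS2 (-0.20), and these 17.6% called lower are near the 15.1% of all genes. All 5 elongation factor genes fell (median log2 fold change -0.19), among them EEF2 (-0.43), EEF1A1 (-0.16), EEF1G (-0.22) and EEF1D (-0.18). These genes are abundant, and 28.5% of genes at or above 42.2 CPM were called lower. The elongation factors were thus lower together with most cytosolic synthetases.

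By the GENCODE v29 annotation, 18 of the 35 genes share exon bases with another gene, 16 of them on the opposite strand, and 13 have named pseudogenes with which reads could be exchanged, with ASNS, PSAT1 and ATF4 having 4 each. How the counting treated such reads is not given in the sources used here. Over the 13 analyses of the LMO1 comparison, WARS, ATF5 and TRIB3 were higher in all, and EPRS, FARSA, LARS, RARS, SARS and VARS were lower in all. A further 9 genes were called in none, and the calls of the other 17 changed with the analysis.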

How the data were processed

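Total RNA of 6 libraries was prepared with a stranded kit and sequenced paired-end, per the labels' protocols. The submitters' processing notes name TopHat2 2.0.6, HTSeq and hg19. The deposited values are raw counts per gene symbol, 25370 rows, made by the authors. The annotation and the strand setting are not given in the sources used here. Counts were tested with edgeR 4.0.16 in R 4.3.3 (TMM scaling, filterByExpr, quasi-likelihood F test, Benjamini-Hochberg over all 15480 genes kept), on the 2 LMO1 and 2 vector libraries, and 9890 rows were removed by the filter. The SE is the log2 fold change divided by the square root of F. Intervals are 95%, from the t quantile for fold changes and exact for Poisson counts. Kelly and parental ratios use CPM plus a pseudocount of 1 for the size rule, over genes reaching 5 CPM in one or other group, while printed folds are plain CPM ratios.

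Replicate libraries differed by more than counting noise (chi-square per degree of freedom 2.91 and 2.75), so none was merged. Same-numbered deviations had a correlation of -0.0217 over 11331 genes, so the replicate numbers were not used as pairs in the main test. This check cannot show whether same-numbered libraries were handled together. Per-library values were given for called genes with an absolute log2 fold change of at least 0.4, for genes 2-fold apart in either size comparison, and for ATF4, ASNS, CHAC1, TRIB3, DDIT3, SLC7A11 and LMO1. From the surrounding lists, up to 4 called genes with the lowest adjusted p were named, and JDP2, SQSTM1, EIF4EBP1, AIMP1, AIMP2, EEF1E1 and the fibroblast markers in addition. VARS, FARSA, FARSB, EPRS, SLC7A5 and NUP62 were given in addition, chosen after their values were seen. The 35 genes and the lists were chosen with earlier results of these data known. Exon lengths and overlaps come from GENCODE v29, on another build than the counts, so none of its coordinates are printed. The summed level of 1 marker list is not reported here. GC content is that of the longest coding transcript in the same annotation. Alternatives were DESeq2 1.42.0, limma-voom (limma 3.58.1), other scalings and filters, all 6 libraries in the fit, a replicate block and leaving out each replicate. The fitting was tested on simulated data.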

Additional observations from a re-analysis of the deposited data

How the results depend on the processing

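Against 2463 higher and 2334 lower genes in edgeR, the DESeq2 Wald test called 1539 higher and 1431 lower, with 4 fewer calls in the set (KARS, ASNS, PSPH and SLC7A5); the cause was not tested. Leaving out 1 library moved the genes of the set called lower between 9 and 18 (main 15) and the synthetases called lower between 7 and 13 (main 11), lowest without vector replicate 1; a lone library is then assumed to vary like the other group. With the replicate block, 5 of the 35 genes were called higher and 17 lower, with no call lost, and no paired reading is drawn from it. Total-count scaling moved the median of all genes by 0.0267 and the share of calls that were higher from 51.3% to 59.6%, and lost TARS, ASNS and ATF4. With a 2-fold size rule, 2 genes were higher in Kelly, and 1 was higher and 0 lower in parental BE2C.

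Direction changed for 5 genes that were not called in the main analysis (SHMT2 was called higher without LMO1 replicate 1). For MARS the log2 fold change was 0.0168 with total-count scaling and 0.00777 with a minimum of 5 CPM in 2 libraries. With 1 library left out it ran from -0.0247 to 0.00133 for MARS, -0.0414 to 0.0873 for DARS (-0.0197 without vector replicate 2), -0.00479 to 0.133 for HARS, -0.00169 to 0.0693 for SHMT2 and -0.0373 to 0.0556 for SLC3A2. Of the other values of single genes under these alternatives, 370 kept direction and call, 24 lost the call and 18 gained it. With 2 libraries a side, changes of a few percent are the limit of what was resolved.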
